A study of Homo sapiens with 6 samples.

Results

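The genes described here encode subunits of the PPP family of serine-threonine phosphatases, in THP-1, a human monocytic leukaemia line. Members were chosen by gene symbol, as PPP followed by a digit from 1 to 6, and no measured value enters that rule. PPP1R15A was left out by the rule and 4 rows were left out as pseudogenes, which kept 74 of the 23710 genes in the counts table. They comprise 11 catalytic subunits, 62 regulatory subunits and the non-coding PPP2R2B-IT1. The group was proposed with the difference between mebendazole and control already known, so every such difference below is a description and supports nothing further.

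Cells were cultured for 6 h with 10 uM mebendazole, a benzimidazole that binds beta tubulin, or with DMSO as the vehicle. There were 3 libraries per group, which the labels number as sample pairs 1 to 3. All libraries came from this 1 cell line, and what a pair stands for is not stated in the labels, so the spread between libraries may be technical. Total counts lay between 13420558 and 15727667. Monocyte-line markers summed to 1626 to 1721 CPM (counts scaled to a common library size) in DMSO and 1579 to 1622 CPM with mebendazole, but the 9 markers moved apart. SPI1 had 15191 reads in DMSO and 25461 with mebendazole, while the other 8 had fewer reads with mebendazole, among them CD33 with 4189 and 1046, CD14 with 919 and 375, and LYZ with 18241 and 9562. On the CPM scale 7 of the 9 were lower. Stromal and endothelial markers, nearly all reads of PECAM1, summed to 90.04 to 101.3 CPM in DMSO and 125.3 to 146.9 CPM with mebendazole. Of the 5 T cell markers, 4 had under 10 reads in all. Their sum was 0.412 to 0.723 CPM in DMSO and 4.49 to 6.52 CPM with mebendazole. CD8A had 16 and 212 reads of it, whereas CD3D, CD3E and CD3G had no read with mebendazole. The part of these marker differences in the results below was not tested. In bulk RNA, fewer cells of a type and less RNA per cell cannot be told apart.

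PPP enzymes remove phosphate from serine and threonine and share a metal-dependent catalytic core. The catalytic subunits work in complexes that set their substrates: PP1 is directed by a large and varied set of regulatory proteins, and PP2A is a trimer of a scaffold (A), a catalytic (C) and an exchangeable B subunit. PP2B, known as calcineurin, is switched on by calcium and calmodulin and activates NFAT transcription factors, while PP4, PP5 and PP6 are relatives with roles in DNA repair, chaperone complexes and mitosis. In monocytes and macrophages, PP1 and PP2A counter the kinases of inflammatory and stress signalling.

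Promoter windows of 4 members are shown because the values below turn on them: the PP1 catalytic genes PPP1CB and PPP1CC, which moved in opposite directions, PPP2CA of PP2A, and PPP2R5B, the PP2A B subunit with the largest difference. Each window runs from 250 bases before to 50 after the gene's start in RefSeq (GRCh38.p14), 5′ to 3′ on the gene's strand. Capitals mark exact matches, on either strand, to 3 motifs. The GC box was searched as GGGCGG. The second motif is the box named for its letters, CCAAT. The cAMP response element was searched as TGACGTCA. The windows are PPP1CB at chr2:28751580-28751879 (plus strand), PPP1CC at chr12:110742842-110743141 (minus), PPP2CA at chr5:134226024-134226323 (minus) and PPP2R5B at chr11:64924439-64924738 (plus).
PPP1CB: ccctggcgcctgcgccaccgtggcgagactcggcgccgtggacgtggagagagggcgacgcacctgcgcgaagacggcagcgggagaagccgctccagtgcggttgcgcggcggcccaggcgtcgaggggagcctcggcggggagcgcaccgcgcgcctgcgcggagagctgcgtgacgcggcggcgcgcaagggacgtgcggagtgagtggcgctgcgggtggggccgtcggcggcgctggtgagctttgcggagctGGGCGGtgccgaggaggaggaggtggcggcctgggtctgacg
PPP1CC: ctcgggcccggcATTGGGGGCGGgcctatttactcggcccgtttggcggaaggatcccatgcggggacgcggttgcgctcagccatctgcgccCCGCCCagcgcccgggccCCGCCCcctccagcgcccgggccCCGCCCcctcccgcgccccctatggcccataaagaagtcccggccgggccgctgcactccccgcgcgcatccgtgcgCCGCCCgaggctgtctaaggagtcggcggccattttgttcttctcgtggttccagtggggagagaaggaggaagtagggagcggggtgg
PPP2CA: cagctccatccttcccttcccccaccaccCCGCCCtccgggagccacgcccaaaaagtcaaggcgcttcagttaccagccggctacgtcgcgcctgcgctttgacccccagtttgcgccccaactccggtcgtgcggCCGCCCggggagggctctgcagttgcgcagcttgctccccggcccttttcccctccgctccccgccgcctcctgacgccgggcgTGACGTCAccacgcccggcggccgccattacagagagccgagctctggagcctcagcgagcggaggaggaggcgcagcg
PPP2R5B: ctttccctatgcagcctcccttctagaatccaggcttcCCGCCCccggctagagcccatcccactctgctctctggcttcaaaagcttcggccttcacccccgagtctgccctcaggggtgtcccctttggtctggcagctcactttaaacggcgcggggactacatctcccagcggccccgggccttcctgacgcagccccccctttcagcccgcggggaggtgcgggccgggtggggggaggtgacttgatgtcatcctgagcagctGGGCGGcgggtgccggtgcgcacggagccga

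PPP1CC held 5 GC boxes, of which 1 directly follows its CCAAT match, and PPP1CB held 1 GC box and neither of the other motifs. The cAMP response element of PPP2CA began 29 bases before the gene's start. A RefSeq window was at hand for 49 of the 61 members tested. Of these, 3 (6.12%) held a cAMP response element, PPP2CA, PPP2R2D and PPP1R12C, against 1.85% of all 35116 windows of the same length. A GC box was in 65.3% of the members' windows and in 45.0% of all windows, and a CCAAT box in 32.7% and 34.6%. The median GC content was 65.7% in the members' windows and 58.7% in all. The 35116 windows were not limited to genes that passed the filter on low counts, as the members' windows were, so the 2 sets are unlike. The motif matches describe the letters only, and start sites were not measured in these libraries.

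Of the 74 members, 61 passed the filter on low counts, including all 11 catalytic genes, and 50 of the 61 were called changed at an adjusted p under 0.05 in edgeR's fit over all genes. The call rate over all genes was 82.3%. Members called higher numbered 41 (67.2%), where 40.6% of all genes tested were higher. Those called lower numbered 9 (14.8%), where 41.7% of all genes were lower. PPP1R17 and PPP4R4 are among the 41, but passed the filter only through the mebendazole libraries, where they are high. With a floor of 10 on the mean CPM, 42 of 51 members and 86.9% of all genes were called. The median log2 fold change was 0.45 over the members tested and -0.03 over all genes tested. The libraries of the 2 groups did not overlap for 47 of the 61 members, and for 11196 of all 13591 genes tested. Groups that lie apart, as given for many genes below, were therefore common in this series.

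Levels depend on the scaling between libraries. CPM below use TMM factors, which ranged from 1.08 to 1.10 in DMSO and from 0.913 to 0.928 with mebendazole. With plain library totals the median over all genes shifted by -0.244, and the members by -0.211 to -0.245. The members called higher then numbered 32 of 61, against 30.8% of all genes. Those called lower numbered 17 of 61, against 53.9%, and 84.6% of all genes were called. Under that scaling 10 members lay below 0 in place of above it: PPP1CA, PPP1R8, PPP1R12B, PPP3CB, PPP2R5E, PPP6R1 and PPP1R11, which were called under at least 1 of the scalings, and PPP1R35, PPP2R3B and PPP1R3D, which were called under neither. Shares of reads within a library do not depend on this choice. Members took 0.436% to 0.442% of all counts in DMSO and 0.487% to 0.498% with mebendazole, and the ranges did not overlap.

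**Figure D1:**
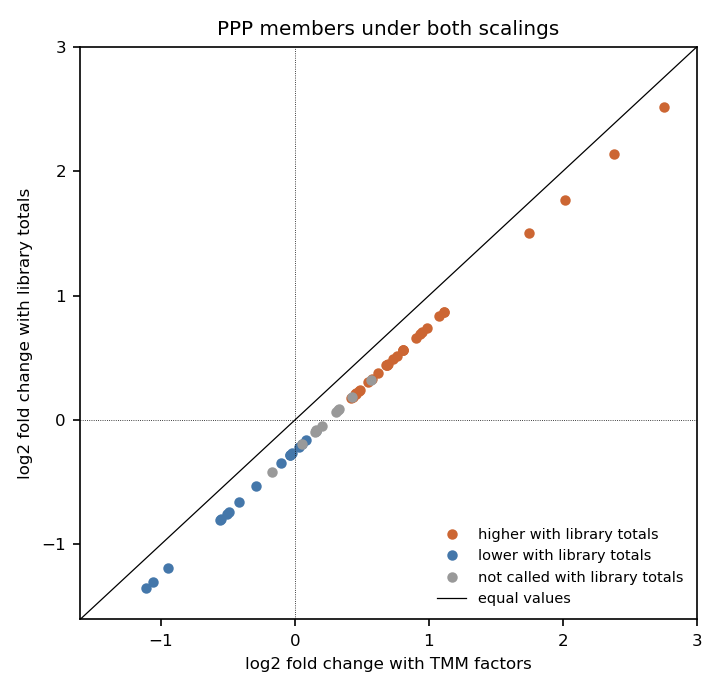
Log2 fold change (mebendazole minus DMSO) of each tested member with TMM factors (x axis) and with plain library totals (y axis), coloured by its call with library totals. All points lie below the line of equal values, and 10 of them are above 0 on the x axis and below 0 on the y axis. PPP1R16B and PPP1R17, with larger rises, lie outside the axes.

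More genes rose than fell in both roles. Of the 11 catalytic genes, 8 rose and 2 fell, and their median log2 fold change was 0.69. Of the 50 regulatory genes that passed the filter, 33 rose and 7 fell, and their median was 0.44. Over all genes tested, 40.6% rose and 41.7% fell, and the median was -0.03. With library totals the medians were 0.44 and 0.20, with 7 catalytic genes higher and 3 lower and 25 regulatory genes higher and 14 lower. Under that scaling 30.8% of all genes were higher and 53.9% lower, with a median of -0.27. Catalytic genes ran from -0.56 to 1.11. Regulatory genes ran from -1.11 to 4.15, leaving out PPP1R17 and PPP4R4, which had under 10 reads in DMSO. Both are counted among the 33 that rose. Summed over all members, catalytic genes took 29.4% to 29.9% of the members' counts in DMSO and 31.4% to 32.4% with mebendazole. No test was made of this difference, since genes are not replicates of a condition.

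**Figure D2:**
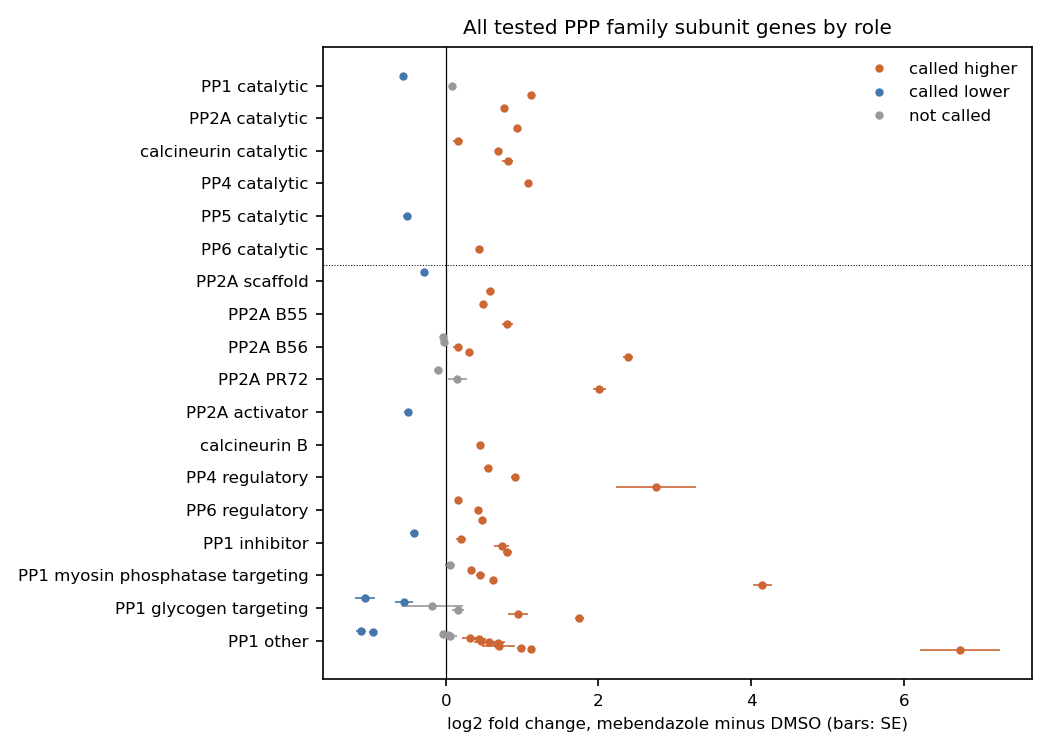
Log2 fold change of all 61 tested members by role (x axis, with SE), catalytic classes above the dotted line and regulatory classes below it. Catalytic genes stay between -0.56 and 1.11, while single regulatory genes reach 2.38 (PPP2R5B), 4.15 (PPP1R16B) and 6.73 (PPP1R17, a fitted value that rests on 1 read in DMSO).

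The 3 PP1 catalytic isoforms, near-identical enzymes that differ mostly at their ends, went 3 ways. PPP1CB, the beta isoform found in myosin phosphatase, had 148, 142 and 138 CPM in the DMSO libraries and 313, 291 and 322 CPM with mebendazole. Its groups were well apart, and it rose 2.16-fold (log2 fold change 1.11, SE 0.04). PPP1CC, the gamma isoform, had 204, 206 and 204 CPM in DMSO and 141, 138 and 138 CPM with mebendazole. It fell by 0.56 on the log2 scale (SE 0.04). PPP1CA, the alpha isoform, had 143, 140 and 151 CPM in DMSO and 159, 145 and 154 CPM with mebendazole. These ranges overlapped and the gene was not called with TMM factors (log2 fold change 0.08), but it was called lower with library totals (-0.16) and higher without pair 2 (0.11). Of the exon bases of PPP1CA, 14.9% are shared with RAD9A in the GENCODE annotation, and the kit does not mark strand, so reads there cannot be told apart.

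Within the PP1 catalytic position, which needs no scaling between libraries, the make-up of the reads per kilobase shifted towards PPP1CB. Its share was 17.8%, 17.4% and 16.3% in DMSO and 31.8%, 32.0% and 33.1% with mebendazole. PPP1CC went from 26.0% ± 0.594 to 15.4% ± 0.514, and PPP1CA from 56.8% ± 1.22 to 52.3% ± 0.619 (mean ± SD, n = 3 per group). No library of 1 group overlapped the other for any of the 3 isoforms.

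Both PP2A catalytic genes rose. PPP2CA, the alpha isoform, had 189, 192 and 189 CPM in DMSO and 328, 309 and 328 CPM with mebendazole, a 1.69-fold rise (log2 fold change 0.76, SE 0.03). PPP2CB, the beta isoform, had 99.8, 101 and 99.9 CPM and then 192, 186 and 197 CPM, a rise of 1.91-fold. All mebendazole libraries lay above all DMSO libraries for both genes. The 2 proteins are nearly the same and parts of their mRNAs are alike, so reads may be split between them. The share of PPP2CB in their reads per kilobase was 55.02% ± 0.0480 and 58.0% ± 0.420.

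All 3 calcineurin catalytic genes were called higher with TMM factors, though PPP3CB only narrowly. PPP3CA, the alpha isoform, had 110, 116 and 112 CPM in DMSO and 186, 171 and 187 CPM with mebendazole, a rise of 1.61-fold. PPP3CC had 15.7, 17.5 and 16.2 CPM and then 28.6, 29.3 and 28.7 CPM, a rise of 1.75-fold, with the groups apart. PPP3CB had 29.7, 28.4 and 27.5 CPM in DMSO and 33.3, 28.8 and 33.4 CPM with mebendazole. Its ranges overlapped, its log2 fold change of 0.16 became -0.085 with library totals, and it was not called with DESeq2, with a floor of 10 on the mean CPM, or without pair 1 or pair 3. Its share within calcineurin went from 17.4% ± 0.871 to 12.5% ± 0.503 of reads per kilobase.

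The single-gene enzymes PP4, PP5 and PP6 also divided. PPP4C, the catalytic subunit of PP4, which acts in DNA repair and centrosome maturation, had 84.98, 78.9 and 82.3 CPM in DMSO and 168, 169 and 182 CPM with mebendazole. It rose 2.11-fold (log2 fold change 1.08, SE 0.04). PPP6C, the catalytic subunit of PP6, had 102, 104 and 102 CPM and then 141, 133 and 140 CPM, a rise of 1.35-fold. PPP5C encodes a phosphatase with tetratricopeptide repeats that works with the HSP90 chaperone. It had 70.9, 66.8 and 72.6 CPM in DMSO and 49.2, 48.2 and 50.4 CPM with mebendazole, and fell by 0.51 on the log2 scale. For each of these genes the groups did not overlap.

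**Figure D3:**
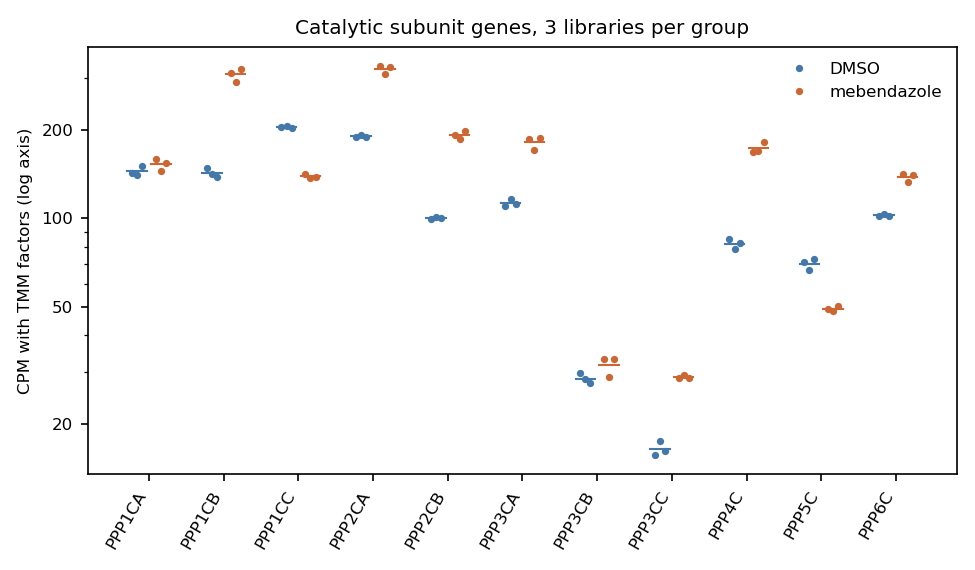
Level of the 11 catalytic subunit genes in each library (CPM with TMM factors, log axis); points are libraries and short lines group means. PPP1CC and PPP5C are lower with mebendazole in all libraries, PPP1CA and PPP3CB overlap, and the other 7 genes are higher in all libraries.

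Levels per length set the catalytic genes in order within a library. In DMSO, PPP1CA was first at 94.6 CPM per kilobase of annotated exon, followed by PPP4C (54.8), PPP2CB (50.03), PPP1CC (43.4), PPP2CA (40.9), PPP5C (33.2) and PPP1CB (28.6). PPP3CA (24.0 ± 0.687) and PPP6C (23.6 ± 0.217) did not differ beyond their spread (SD, n = 3), nor did PPP3CC (6.43 ± 0.358) and PPP3CB (6.38 ± 0.253). With mebendazole PPP4C was first at 116 ± 5.15 CPM per kilobase, and PPP1CA (100.1 ± 4.89) and PPP2CB (95.6 ± 2.81) came next, with overlapping spreads. PPP1CC moved from the fourth place to below PPP1CB, PPP3CA and PPP6C, at 29.5 CPM per kilobase. Summed by enzyme, PP1 took 41.0% ± 0.354 of all catalytic reads per kilobase in DMSO and 32.8% ± 0.544 with mebendazole. PP2A went from 22.4% ± 0.389 to 28.2% ± 0.0904, PP4 from 13.5% ± 0.414 to 19.8% ± 0.656 and PP5 from 8.19% ± 0.267 to 4.002% ± 0.0582. Exon lengths come from GENCODE and not from the transcripts these cells use, so the order is less firm than the shifts.

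Of the PP2A scaffolds, the abundant gene fell and the minor one rose. PPP2R1A, the A alpha scaffold, had 242, 224 and 236 CPM in DMSO and 191, 192 and 192 CPM with mebendazole, a fall of 0.29 on the log2 scale. PPP2R1B, the A beta scaffold, had 45.1, 46.0 and 46.8 CPM and then 69.4, 66.8 and 69.2 CPM, a rise of 1.49-fold. Groups did not overlap for either gene. The share of PPP2R1B in scaffold reads per kilobase was 16.9%, 18.3% and 17.8% in DMSO and 28.4%, 27.5% and 28.2% with mebendazole. Scaffold reads per PP2A catalytic read, both per kilobase, went from 0.490 ± 0.0195 to 0.253 ± 0.00648 (SD, n = 3). PPP2R4, now named PTPA, encodes the activator that helps load the catalytic metal ions. It had 81.5, 74.7 and 82.5 CPM in DMSO and 55.1, 58.5 and 56.03 CPM with mebendazole, a fall of 0.49 on the log2 scale.

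B subunits give PP2A its substrates, and B56 members split by gene. PPP2R5B, the beta member, had 14.0, 12.7 and 14.3 CPM in DMSO and 67.8, 72.5 and 73.9 CPM with mebendazole, a 5.21-fold rise (log2 fold change 2.38, SE 0.065). Its share of B56 reads per kilobase went from 5.81% ± 0.278 to 23.7% ± 1.19. PPP2R5C, the gamma member, had 122, 122 and 124 CPM in DMSO and 163, 142 and 150 CPM with mebendazole, and was called higher (0.31), though not with library totals (0.062). PPP2R5E, the epsilon member, had 41.3, 37.6 and 40.9 CPM and then 47.8, 41.0 and 44.5 CPM. Its groups overlapped, and its call (0.15) was lost with library totals, with DESeq2 and without pair 1. PPP2R5A, at 115 ± 1.85 and 112 ± 3.04 CPM, and PPP2R5D, at 76.5 ± 0.737 and 75.6 ± 1.17 CPM, were not called, and both were called lower with library totals (-0.28 and -0.26). MEA1 shares 39.2% of the exon bases of PPP2R5D, so its reads are uncertain.

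B55 members target PP2A to mitotic and cytoskeletal substrates. PPP2R2A, the main B55 gene here, had 114, 110 and 118 CPM in DMSO and 161, 160 and 158 CPM with mebendazole, a rise of 1.40-fold. PPP2R2D, the delta member, had 16.6, 15.9 and 15.0 CPM and then 27.0, 28.5 and 27.7 CPM, a rise of 1.75-fold. Groups were apart for both. PPP2R2C had 6 and 20 reads in all and PPP2R2B none, and neither was tested. In the PR72 class, whose members bind calcium, PPP2R3A had 7.56, 7.12 and 6.29 CPM in DMSO and 30.0, 28.1 and 26.6 CPM with mebendazole, a 4.04-fold rise (log2 fold change 2.01, SE 0.09). PPP2R3B, at 7.93 ± 1.42 and 8.76 ± 0.580 CPM, and PPP2R3C, at 57.1 ± 3.07 and 53.2 ± 2.63 CPM, were not called. PPP2R3B was called higher without pair 2 (0.36), and PPP2R3C lower with library totals (-0.35), without pair 1 (-0.14) and under both other filters on low counts. The sum of the B55, B56 and PR72 genes per catalytic read, per kilobase, went from 1.60 ± 0.0221 to 1.12 ± 0.0140. PP2A partners with other symbols are not in this sum. Among these the striatin genes were all called higher: STRN from 33.9 to 62.0, STRN3 from 29.4 to 39.9 and STRN4 from 74.1 to 134 CPM. B56 held 58.8% ± 0.849 and 59.4% ± 0.218 of the reads per kilobase of B55, B56 and PR72 together, with overlapping libraries.

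**Figure D4:**
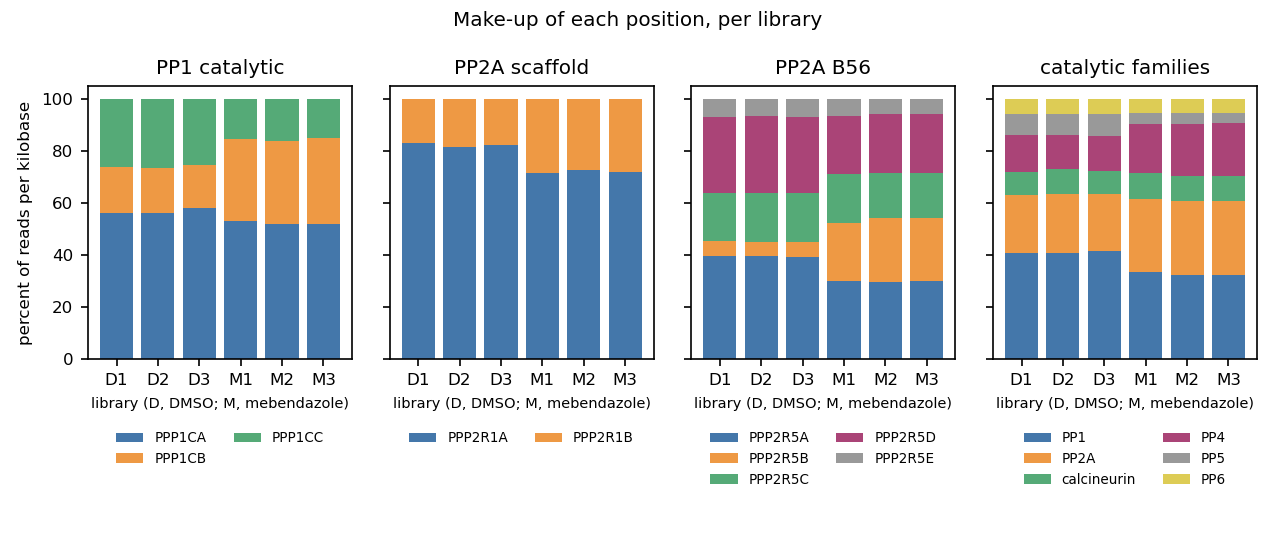
Share of each gene in the reads per kilobase of its position, per library, for PP1 catalytic, PP2A scaffold and PP2A B56 genes, and share of each enzyme in all catalytic reads per kilobase (D, DMSO; M, mebendazole). PPP1CB, PPP2R1B and PPP2R5B take a larger share in all 3 mebendazole libraries than in any DMSO library.

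Regulatory genes of calcineurin, PP4 and PP6 with a PPP symbol in the table that were tested all rose with TMM factors. PPP3R1, the calcium-binding calcineurin B subunit, had 106, 103 and 104 CPM in DMSO and 142, 136 and 150 CPM with mebendazole, a rise of 1.37-fold. PPP3R2, its other form, had 0 and 2 reads. Of the exon bases of PPP3R1, 34.6% are shared with other annotated genes, none found in the counts table by symbol. Reads of those genes may be counted as PPP3R1. PPP4R1, a PP4 partner, had 52.1, 51.2 and 51.3 CPM and then 95.8, 98.5 and 95.5 CPM, a rise of 1.87-fold. PPP4R2, which serves PP4 in DNA repair, had 41.1, 42.6 and 43.5 CPM and then 64.3, 60.9 and 61.1 CPM, a rise of 1.46-fold. PPP4R4 was also called higher, on 7 reads in DMSO and 42 with mebendazole, a ratio of 7.07 (exact 95% interval 3.15 to 18.7). It had 4, 0 and 3 reads in the DMSO libraries and passed the filter only through those with mebendazole. A rise was thus favoured in advance, and neither the call nor the interval supports it. Intervals on reads cover counting error only. SMEK1 and SMEK2 are older symbols of the PP4 regulatory subunits PPP4R3A and PPP4R3B, so they are not members by symbol. They count among the partners below. SMEK1 rose from 128 ± 3.91 to 155 ± 1.73 CPM, whereas SMEK2, at 154 ± 4.06 and 155 ± 5.21 CPM, was not called.

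PP6 regulators, which hold PP6 in complexes with ankyrin repeat proteins, moved modestly. PPP6R3 had 110, 116 and 109 CPM in DMSO and 165, 148 and 155 CPM with mebendazole, a rise of 1.39-fold. PPP6R2 had 80.6, 78.4 and 78.7 CPM and then 107, 106 and 105 CPM, a rise of 1.34-fold. PPP6R1, the most abundant of the 3 per kilobase, had 259, 242 and 244 CPM and then 274, 281 and 277 CPM. Its groups did not overlap, but its log2 fold change of 0.16 became -0.086, called lower, with library totals.

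Among the 39 PP1 regulatory genes, 30 were tested, and 19 rose and 5 fell, so that 80% were called, beside 82.3% of all genes. Over all genes tested, 40.6% rose and 41.7% fell. With library totals 14 of the 30 were called higher and 8 lower, against 30.8% and 53.9% of all genes. The largest rise at a mean CPM of 3 or more was that of PPP1R16B, a membrane-anchored targeting subunit known from endothelium as TIMAP. It had 1.45, 1.69 and 1.59 CPM in DMSO and 26.6, 29.8 and 27.9 CPM with mebendazole, a 17.7-fold rise (log2 fold change 4.15, SE 0.12). Its relatives in the myosin phosphatase targeting class moved less. PPP1R12C rose from 110 ± 0.825 to 169 ± 3.10 CPM, and PPP1R16A from 30.6 ± 2.80 to 41.9 ± 2.58 CPM. PPP1R12A, which encodes MYPT1, the main myosin phosphatase target subunit, had 84.98, 86.4 and 83.1 CPM and then 107, 105 and 109 CPM. It was called higher with TMM factors (0.33) and not with library totals (0.086). PPP1R12B, at 28.4 ± 1.85 and 29.4 ± 0.144 CPM, was not called, but it was called lower with library totals (-0.19).

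Glycogen-targeting subunits, which tether PP1 to glycogen synthase and phosphorylase, went both ways. PPP1R3B, the form known from liver, had 22.02, 23.5 and 25.0 CPM in DMSO and 74.8, 78.4 and 84.1 CPM with mebendazole, a rise of 3.36-fold (log2 fold change 1.75, SE 0.06). PPP1R3F rose from 4.51 ± 0.147 to 8.73 ± 0.536 CPM. PPP1R3E had 10.5, 11.4 and 9.64 CPM in DMSO and 4.11, 5.22 and 5.82 CPM with mebendazole, a fall of 1.06 on the log2 scale. PPP1R3G fell from 9.38 ± 0.552 to 6.39 ± 0.905 CPM. PPP1R3D had 16.8, 16.4 and 15.4 CPM and then 17.7, 17.3 and 19.4 CPM. Its groups did not overlap, yet it was not called, except without pair 2 (0.22). PPP1R3C, under 1 CPM in each library, was not called, and PPP1R3A had 3 and 0 reads.

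PP1 inhibitors block the active site or hold the enzyme in check. PPP1R2, inhibitor 2, had 34.2, 32.0 and 31.4 CPM in DMSO and 63.5, 50.9 and 56.3 CPM with mebendazole, a rise of 1.75-fold. PPP1R14C, an inhibitor that kinases strengthen, rose from 9.99 ± 1.23 to 16.6 ± 1.43 CPM. PPP1R14B, of the same class and more abundant, had 50.1, 50.5 and 54.8 CPM and then 38.5, 38.0 and 40.1 CPM, a fall of 0.41 on the log2 scale. PPP1R11, inhibitor 3, at 34.6 ± 2.83 and 39.7 ± 0.872 CPM, was called higher (0.20), but its log2 fold change was -0.045 with library totals and DESeq2 did not call it. The neuronal and muscle inhibitors of this class were at or near 0: PPP1R1B (DARPP-32) and PPP1R14A had no read, PPP1R1A had 11 and 3 reads, PPP1R1C 6 and 3, and PPP1R14D 2 and 4. A count of 0 over a group allows a level of up to 0.0639 CPM in DMSO and 0.0753 CPM with mebendazole.

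Other PP1 partners followed no single direction. PPP1R15B, which encodes CReP, the constitutive subunit that brings PP1 to eIF2 alpha and so restores translation, had 206, 211 and 207 CPM in DMSO and 460, 434 and 458 CPM with mebendazole. It rose 2.17-fold (log2 fold change 1.12, SE 0.03). PPP1R18, the actin-binding phostensin, had 42.8, 38.4 and 37.1 CPM and then 75.6, 78.0 and 80.0 CPM, a rise of 1.98-fold. PPP1R37, a leucine-rich repeat protein, rose 1.61-fold, and PPP1R27, an ankyrin repeat protein, also rose 1.61-fold. PPP1R10, the nuclear targeting subunit PNUTS, which acts on RNA polymerase II, had 116, 102 and 102 CPM and then 144, 147 and 148 CPM, a rise of 1.37-fold. For these 5 genes the groups were apart.

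Large falls were seen in 2 further PP1 partners. PPP1R7 encodes SDS22, which helps PP1 to mature and restrains it at kinetochores. It had 74.2, 70.4 and 74.4 CPM in DMSO and 38.5, 37.0 and 38.1 CPM with mebendazole, a fall of 0.95 on the log2 scale (SE 0.05). PASK shares 22.3% of its exon bases. PPP1R21, part of a complex on early endosomes, had 41.5, 49.1 and 41.7 CPM and then 19.5, 21.8 and 20.1 CPM, a fall of 1.11 on the log2 scale (SE 0.07). PPP1R8, the nuclear inhibitor NIPP1, at 76.9 ± 2.46 and 78.5 ± 3.29 CPM, PPP1R9B, the actin-binding spinophilin, at 196 ± 9.78 and 191 ± 5.46 CPM, and PPP1R35, a centriole protein, at 13.3 ± 0.794 and 13.9 ± 0.536 CPM, were not called. With library totals PPP1R8 (-0.21) and PPP1R9B (-0.28) were called lower. Other annotated genes, none found in the counts table by symbol, share 47.2% of the exon bases of PPP1R35, so its reads are uncertain.

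**Figure D5:**
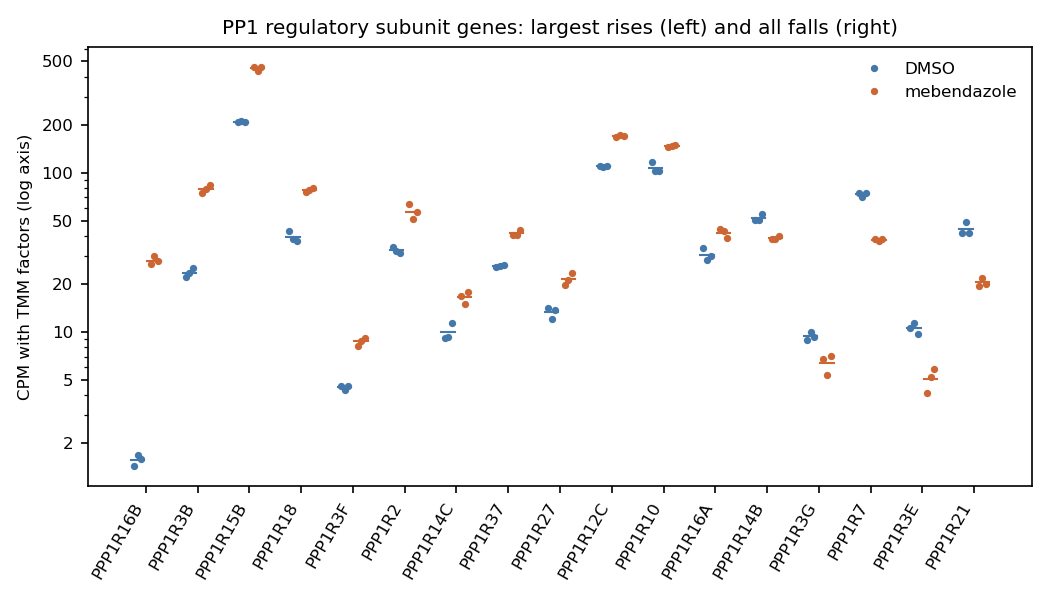
Level of 17 PP1 regulatory genes in each library, all at a mean CPM of at least 3 (CPM with TMM factors, log axis): the 12 largest rises on the left and the 5 falls on the right. Points are libraries and short lines group means, and in each of these genes the 2 groups of libraries are apart.

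The remaining tested PP1 regulators had low or moderate levels. PPP1R26 rose from 11.4 ± 0.566 to 15.4 ± 1.07 CPM, though not with library totals (0.19). PPP1R13B and PPP1R13L, the p53-binding proteins ASPP1 and iASPP, were called higher at 8.76 ± 1.64 and 10.96 ± 1.32 CPM and at 1.93 ± 0.472 and 3.15 ± 0.335 CPM. DESeq2 called neither, PPP1R13B was also not called with library totals (0.079) or without pair 3, and PPP1R13L not without pair 2. PPP1R32, at 2.39 ± 0.816 and 3.56 ± 0.506 CPM, lost its call with library totals, with DESeq2 and without pair 2 or pair 3. PPP1R17, known from cerebellum as G-substrate, had 1 read in DMSO, and 3.33, 3.68 and 2.60 CPM, 128 reads in all, with mebendazole. The ratio was 151 (exact 95% interval 26.6 to 6000). PPP1R17 passed the filter only through its mebendazole libraries, so a rise was favoured in advance and these values do not support it. PPP1R36 (11 and 4 reads), PPP1R9A (4 and 1) and PPP1R42 (0 and 1) did not pass the filter, and PPP2R2B-IT1 had no read.

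Partners of these enzymes that carry other symbols were read from lists that leave the members out. For each list below, the values over all genes tested were 40.6% called higher, 41.7% called lower and a median of -0.03. The lists were read with TMM factors only. With library totals the median over all genes shifted by -0.244. Of 27 PP2A partners tested, 19 rose and 5 fell. STRIP2, of the STRIPAK complex, rose from 10.3 ± 0.386 to 56.8 ± 6.38 CPM. ARPP19 and ENSA, the small proteins that inhibit B55-bound PP2A once phosphorylated, rose from 141 ± 4.62 to 281 ± 6.83 CPM and from 230 ± 10.5 to 359 ± 5.18 CPM. The nuclear inhibitors of PP2A fell: ANP32A from 218 ± 7.53 to 80.2 ± 0.870 CPM, SET from 492 ± 1.34 to 342 ± 7.36 CPM, and the related ANP32E from 166 ± 0.663 to 76.9 ± 4.31 CPM. The median log2 fold change of the list was 0.30.

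Of 27 PP1 partners that passed the filter, 13 rose, 10 fell and the median log2 fold change was 0.11. CSRNP1, a nuclear protein, rose 20.0-fold to 254 ± 9.31 CPM. MRAS, which joins SHOC2 and PP1 to activate RAF kinases, rose from 59.5 ± 0.296 to 155 ± 8.37 CPM, and TOX4, a PNUTS partner, from 64.8 ± 1.93 to 122 ± 4.44 CPM. PHACTR3, a PP1 and actin regulator, fell from 107 ± 5.88 to 3.87 ± 0.564 CPM. AKAP1, a mitochondrial anchor, fell by 1.75 and RRP1B, a nucleolar PP1 targeting protein, by 0.66 on the log2 scale.

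Of 18 calcineurin regulators and NFAT genes that passed it, 8 rose, 8 fell and the median log2 fold change was 0.02. RCAN1, a calcineurin inhibitor and target of NFAT, rose 6.39-fold from 44.1 ± 1.65 to 282 ± 24.7 CPM. CRTC2, a CREB coactivator that calcineurin dephosphorylates, rose 2.50-fold. CALM2 (-0.93) and CALM3 (-0.81), which encode calmodulin, fell on the log2 scale. The NFAT transcription factor genes went both ways. NFATC2 fell from 57.2 ± 1.59 to 24.4 ± 1.38 CPM and NFATC3 from 74.1 ± 2.41 to 61.6 ± 1.20 CPM, whereas NFATC1 rose from 23.8 ± 0.512 to 51.1 ± 2.84 CPM.

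Of 7 PP4 and PP6 partners, 4 rose and 2 fell. ANKRD52, ANKRD28 and ANKRD44 encode the ankyrin repeat subunits of PP6. ANKRD52 (0.75) and ANKRD28 (0.47) rose on the log2 scale, as did the splicing helicase DHX38 (0.35), whereas ANKRD44 (-0.87) and the PP4 substrate CCDC6 (-0.23) fell. A further list held other serine-threonine phosphatases and relatives such as TAB1, mainly the metal-dependent PPM family and the phosphatases of the RNA polymerase II tail. Of its 26 genes tested, 16 rose, 5 fell and the median log2 fold change was 0.59. PPM1A (1.16), CTDSP2 (0.77) and PPTC7 (1.15) rose, and PPM1H (-2.93), TAB1 (-1.18) and CTDSPL2 (-0.26) fell. The share of genes called in these 5 lists ran from 80.8% to 88.9%, beside 82.3% of all genes tested (40.6% higher and 41.7% lower).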

How the data were processed

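RNA of 6 THP-1 samples was sequenced from TruSeq RNA v2 libraries, per the labels' protocols. That kit does not mark strand. Raw counts by gene symbol were deposited in 1 table with a column for each sample. STAR, bedtools, HTSeq, DESeq2 and hg19 are named without roles, per the submitters' processing notes. For annotation and strand setting, nothing was stated.

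The analysis used edgeR 4.0.16 in R 4.3.3, with filterByExpr (13591 of 23710 genes kept), TMM factors, and a two-sided quasi-likelihood test with the sample pair as a term, because the labels state pairs, adjusted by Benjamini-Hochberg over all genes tested. Deviations of same-numbered samples correlated at -0.001, 0.061 and 0.016. Genes were called at an adjusted p under 0.05. Each gene had 2 residual degrees of freedom and the prior shared by all genes 61.0, so calls rest mostly on the pooled spread. CPM are TMM-scaled, as mean ± SD of 3 libraries. The SE was taken as the size of the log2 fold change over the root of F. Lengths are exon unions in GENCODE release 29 (GRCh38), matched by symbol for all 74 members. Replicates differed by more than sampling noise (chi-square per degree of freedom of at least 1.42). The scripts were tested on simulated data in which few genes changed, equally up and down. That test cannot speak to the scaling between groups in these data, where most genes were called. Alternatives were no pair term, library totals, DESeq2 1.42.0, other filters and leaving out each pair. Members and lists were chosen with earlier results of these data known. The rule for named genes took every catalytic, PP2A scaffold and B, calcineurin B, PP4 and PP6 regulatory gene. Of PP1's regulators at a mean CPM of at least 3, it took those not called and, of those called with 1 direction in all pairs, the 12 largest rises and the falls (5, under the 12 allowed). Members that failed the filter are given by their reads. Of each partner list it took the 3 smallest p in each direction, of which 1 gene is not reported here. PPP2R4, the remaining PP1 regulators, SMEK1, SMEK2, NFATC1 and NFATC3 were named after their values were seen.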

Additional observations from a re-analysis of the deposited data

How the results depend on the processing

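Of 61 tested members, 42 had the same call, and where called the same direction, throughout the alternatives, and 16 of the 19 others differed with library totals. With that scaling 17 members were called lower in place of 9, and the catalytic and regulatory medians were 0.44 and 0.20 in place of 0.69 and 0.44. PPP1CA (-0.16), PPP1R8 (-0.21), PPP1R12B (-0.19), PPP3CB (-0.085), PPP2R5E (-0.090), PPP6R1 (-0.086) and PPP1R11 (-0.045) changed sign there, where the median over all genes moved by -0.244, as did 3 members called under neither scaling, PPP1R35 (-0.19), PPP2R3B (-0.092) and PPP1R3D (-0.083). With no replicate block the counts stayed at 50 called, 41 higher and 9 lower, and no member changed its call. DESeq2 called 44 of 70 members, no filter 52 of 70 and a mean CPM of 10 or more 42 of 51, where the main fit called 50 of 61. The share called over all genes was not counted for DESeq2, for no filter, for no block or with a pair left out. Leaving out 1 pair gave 47 to 51 called members of 60 or 61 tested, with 38 to 42 higher and 9 to 10 lower. The catalytic median was then 0.65 to 0.77 and the regulatory median 0.40 to 0.48. The difference in share between groups was 14.3 to 15.7 percentage points for PPP1CB (15.1 with all pairs), 9.80 to 10.98 for PPP2R1B and 17.2 to 18.6 for PPP2R5B. Without scaling by length it was 22.4 points for PPP1CB and 11.98 in place of 17.9 for PPP2R5B, since short and long genes then weigh differently. Depth limits the 13 members that were not tested and PPP1R17 and PPP4R4, with 1 and 7 reads in DMSO.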
